A study of Oryza sativa with 4 samples.

Results

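Gibberellins are plant hormones that drive stem and leaf elongation. They are built from ent-kaurene by a chain of oxidases, made inactive by GA 2-oxidases and related enzymes, and sensed by a nuclear receptor that leads to the breakdown of growth-repressing DELLA proteins. Rice semi-dwarfs and giants are classical mutants of these steps, and several enzyme and receptor genes are themselves set by feedback from the hormone. The 10 rice genes described here were taken by their locus identifiers from the 91960 features of the deposited tables, and all 10 were found. They are 4 genes of synthesis (KO2, GA20ox1, GA20ox2 and GA3ox2), 3 of inactivation (GA2ox1, GA2ox3 and EUI1) and 3 of perception and signalling (GID1, GID2 and SLR1). The rule that picks them uses no measured value, although it was proposed with earlier results of these data known.

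RNA was sequenced from seedlings of japonica rice (Oryza sativa) aged 7 days, grown in a cycle of 14 h light followed by 10 h darkness. One group is the wild type line SN9816 and the other is the mutant line bta1-1, with 2 biological replicates each. BTA1 is named in the title as a gene of tiller angle and shoot gravitropism, and bta1-1 is taken here as an allele of LAZY1. The sources used here give neither the parent line of bta1-1 nor the organs sampled, so effects of the mutation and other differences between the lines cannot be told apart.

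The libraries held between 15093108 and 20334851 counted reads. LAZY1 (OS11G0490600) served as a check of the labels, on the assumption that the mutation lowers its RNA. It had 36.9 and 32.2 CPM in the wild type libraries against 4.20 and 4.82 CPM in those of bta1-1 (CPM, counts scaled by TMM to a common library size). In the marker lists, 5 leaf genes summed to 20334 and 30034 CPM in wild type and to 39698 and 20127 CPM in bta1-1, and 6 root genes to 1022 and 688.0 CPM against 642 and 846 CPM. Leaf markers and some root markers were therefore read in each library, while 3 shoot meristem markers stayed at 0.541 CPM or less in sum. Signs differed within the leaf list. Log2 fold changes (bta1-1 minus wild type) were 0.56 and 0.39 for LHCB genes, 0.08 for RCA, and -0.42 and -0.77 for RBCS2 and RBCS3. The root list was uneven, with NAS1 and NAS2 at 286 to 563 CPM and YSL15 and LSI1 at 5.85 to 26.0 CPM. IRT1 stayed at 2.17 CPM or less, and LSI2 had at most 1 read in any library. These sums do not settle whether root was sampled. None of the 11 tested leaf, root and grain markers was called (edgeR, and 0 at an unadjusted p under 0.05 or by DESeq2 or limma). Over all genes tested 5.41% were called, so 0 of 11 does not show that the tissue make-up was alike. In bulk RNA, fewer cells of a type and less RNA per cell cannot be told apart.

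Of the 10 gibberellin genes 1 changed, the inactivation gene GA2ox3, which fell 4.13-fold in bta1-1. The other 9 did not pass the test of an adjusted p under 0.05 (edgeR quasi-likelihood test, Benjamini-Hochberg adjustment over all 24396 genes tested). Over all genes 5.41% were called, 2.77% higher and 2.64% lower, so 1 of 10 is too few to set the group apart from that background. None of the 10 was called higher, and 0 were higher at an unadjusted p under 0.05 or by DESeq2 or limma. At an unadjusted p under 0.05, 2 were lower, GA2ox3 and GA20ox1. The median log2 fold change of the 10 was -0.14, and that of all genes tested was -0.01. All 10 passed the filter on low counts. The CPM of the groups did not overlap for 4 of the 10 (GA20ox1, GA3ox2, GA2ox3 and GID1), a share below the 46.9% of all genes tested whose groups did not overlap.

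**Figure D1:**
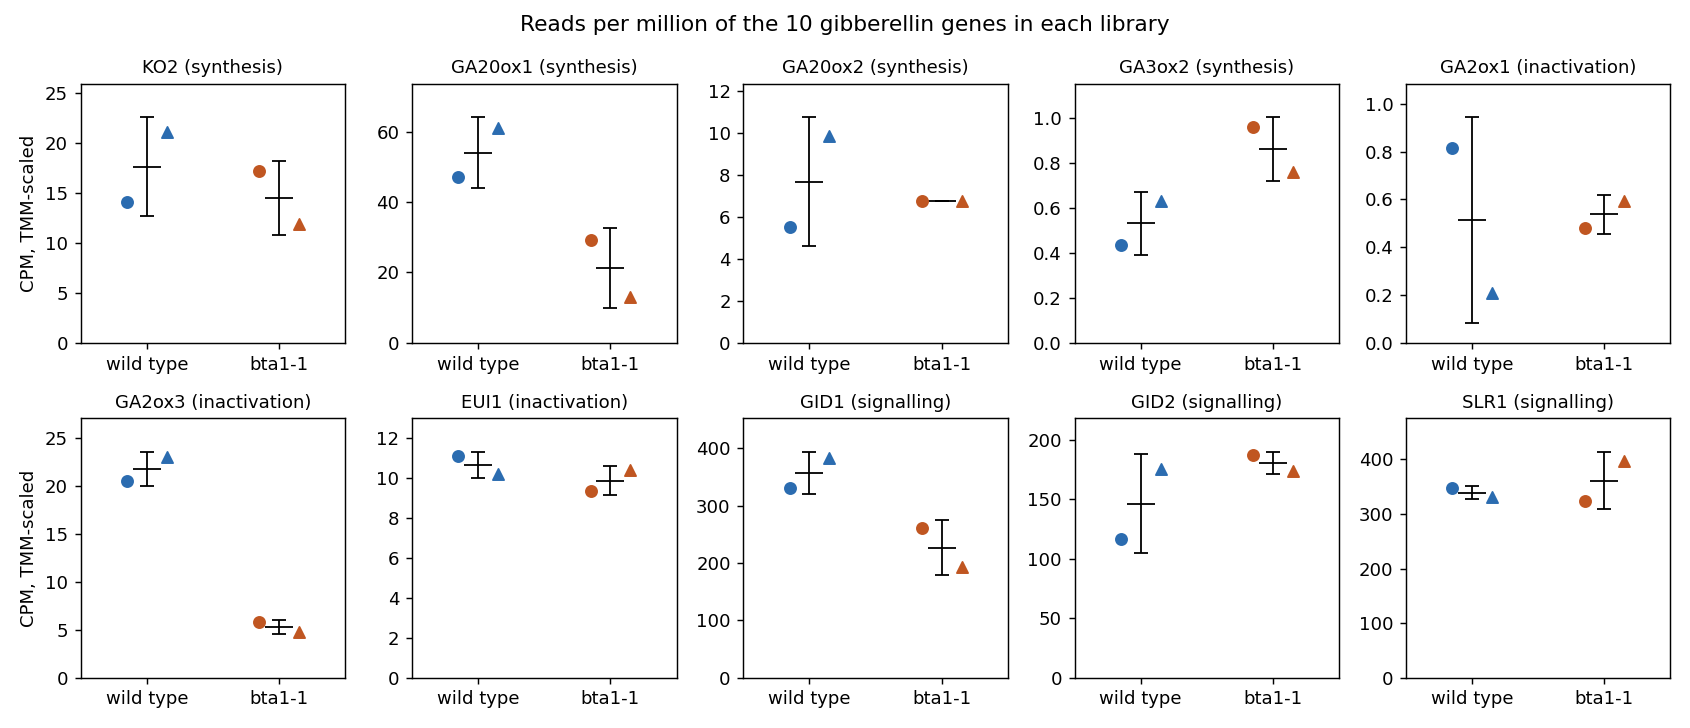
CPM (TMM-scaled) of each of the 10 genes, with circles for library 1 and triangles for library 2 of wild type (blue) and bta1-1 (orange), and with the group mean and SD (n = 2) in black; each panel has its own axis from 0. GA2ox3 sits at 20.5 and 23.0 CPM in wild type and at 5.75 and 4.76 CPM in bta1-1, and GA20ox1 and GID1 also lie lower in both bta1-1 libraries.

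Synthesis starts, in this set, with KO2 (OS06G0570100, chromosome 6), the ent-kaurene oxidase also known as D35, whose loss makes plants dwarf. KO2 had 14.1 and 21.1 CPM in wild type libraries 1 and 2 and 17.1 and 11.9 CPM in bta1-1 libraries 1 and 2. The groups overlapped, with a log2 fold change of -0.27 (SE 0.30, 95% interval -0.96 to 0.42, adjusted p = 0.746). KO2 lies in a cluster of similar oxidase genes, and in the RefSeq table used for names another gene overlaps it, so its reads may be shared with other loci.

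GA20ox1 and GA20ox2 encode GA 20-oxidases, which carry out successive oxidations late in the pathway. GA20ox1 (OS03G0856700, chromosome 3) was counted 977 and 875 times in the wild type libraries and 487 and 243 times in those of bta1-1. Scaled for depth these were 47.0 and 61.1 CPM against 29.2 and 13.2 CPM. Both bta1-1 libraries lay below both wild type libraries, and they differed from each other more than the wild type pair did, bta1-1 library 2 being at 0.451 times library 1. The log2 fold change was -1.35 (SE 0.36, 95% interval -2.18 to -0.52), and GA20ox1 missed the threshold over all genes at adjusted p = 0.0745. The call rested on the library and on the tool. The log2 fold change was -2.04 without bta1-1 library 1, where GA20ox1 was called, and -0.86 without bta1-1 library 2, where it was not. With DESeq2 adjusted p was 0.0103, within a range of 3.89e-05 to 0.254 over 15 alternatives. Of these, 6 called GA20ox1 lower, 1 of them with a pairing of replicates chosen after seeing the data.

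GA20ox2 (OS01G0883800, chromosome 1) is SD1, the semi-dwarf gene of the high-yielding rice varieties. It had 5.53 and 9.84 CPM in wild type and 6.77 and 6.77 CPM in bta1-1. The bta1-1 libraries fell between the wild type ones, with a log2 fold change of -0.18 (95% interval -0.999 to 0.65, adjusted p = 0.877). The balance of the pair can be compared per gene length in FPKM (fragments scaled for gene length and library size). GA20ox1 stood at 7.01 and 5.12 times the FPKM of GA20ox2 in wild type and at 3.56 and 1.60 times in bta1-1. GA20ox1 was thus the higher of the pair in each library, by a smaller factor in both bta1-1 libraries, and this difference was not tested.

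GA3ox2 (OS01G0177400, chromosome 1) is D18, the GA 3-oxidase that makes the active hormone. It was read only 9 and 9 times in wild type and 16 and 14 times in bta1-1. The bta1-1 libraries were the higher ones, at 0.959 and 0.758 CPM against 0.433 and 0.628 CPM. At this depth the log2 fold change of 0.71 had a 95% interval from -0.58 to 1.99 (adjusted p = 0.62), which holds both 0 and a 2-fold rise.

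Among the inactivating enzymes, GA2ox3 (OS01G0757200, chromosome 1) encodes a GA 2-oxidase, which hydroxylates gibberellins into inactive forms. Its reads numbered 426 and 329 in the wild type pair and 96 and 88 in the bta1-1 pair. As CPM these were 20.5 and 23.0 against 5.75 and 4.76. The groups were far apart and the replicates close together, with group means of 21.7 ± 1.76 and 5.26 ± 0.699 CPM (SD, n = 2). The log2 fold change was -2.05 (SE 0.27, 95% interval -2.66 to -1.43, adjusted p = 0.00424). Leaving out any of the 4 libraries kept the call, with log2 fold changes from -2.19 to -1.88 and adjusted p from 0.000525 to 0.0121. In each fit that leaves out a library, here and for the other genes, 1 line has a single library, which is assumed to vary like the pair of the other line. The call was lost with limma on log2(FPKM + 1) of all genes with any value, at adjusted p = 0.0818.

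GA2ox1 (OS05G0158600, chromosome 5), a second GA 2-oxidase, was hardly read. Its reads numbered 17 and 3 in the wild type pair and 8 and 11 in the bta1-1 pair, or 0.817 and 0.209 CPM against 0.479 and 0.596 CPM. The bta1-1 values lay between the wild type values. Its log2 fold change of -0.00 carried a 95% interval from -1.43 to 1.42 (adjusted p = 0.998), and its sign turned with most alternatives. The authors' length for this gene was 5897 bases, against 1113 to 2333 bases for the other 9, which lowers its FPKM.

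EUI1 (OS05G0482400, chromosome 5) encodes a cytochrome P450 that inactivates gibberellins by epoxidation, and its loss lengthens the uppermost internode. EUI1 had 11.1 and 10.2 CPM in wild type and 9.35 and 10.4 CPM in bta1-1. Its groups overlapped and its replicates were close, so the interval of the log2 fold change, -0.73 to 0.51 around -0.11 (adjusted p = 0.9), does not reach a 2-fold change in either direction. GA2ox3 and EUI1, enzymes of the same outcome, thus gave a called fold and an uncalled one, and the difference between them was not tested.

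For perception, GID1 (OS05G0407500, chromosome 5) encodes the soluble gibberellin receptor. It had 331 and 382 CPM in wild type and 261 and 193 CPM in bta1-1. Both bta1-1 libraries were below both wild type libraries, with group means of 357 ± 36.6 and 227 ± 47.5 CPM (SD, n = 2). The log2 fold change was -0.65 (SE 0.29, 95% interval -1.31 to 0.01), and GID1 did not pass the test (adjusted p = 0.288). None of 15 alternatives called it. The lowest adjusted p of these, 0.107, came from a pairing of replicates chosen after seeing the data.

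SLR1 (OS03G0707600, chromosome 3) is the DELLA protein of rice, the growth repressor that the occupied receptor binds. SLR1 had 348 and 331 CPM in wild type and 324 and 398 CPM in bta1-1. The groups overlapped, and the 95% interval of the log2 fold change was -0.55 to 0.73 around 0.09 (adjusted p = 0.924). SLR1 is removed at the protein level, which read counts do not show.

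GID2 (OS02G0580300, chromosome 2) encodes the F-box protein that marks SLR1 for degradation. Its row had 117 and 175 CPM in wild type and 187 and 174 CPM in bta1-1. The wild type libraries differed from each other by more than the bta1-1 ones, and the groups overlapped (log2 fold change 0.30, 95% interval -0.34 to 0.95, adjusted p = 0.687). In the RefSeq table of another rice assembly the gene GF14E, a 14-3-3 protein, overlaps GID2, and 1 entry carries both names. The values of this row may therefore hold reads of GF14E and cannot be assigned to GID2 alone. How the counting treated such an overlap is not known here.

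Levels can be compared between the genes in FPKM. In wild type the order was GID1 at 163 ± 8.09 FPKM, SLR1 at 144 ± 12.8, the GID2 row at 85.2 ± 19.9 and GA20ox1 at 36.4 ± 4.82 (SD, n = 2). GA2ox3 came next at 12.2 ± 0.343 FPKM, above KO2 at 9.74 ± 2.24. GA20ox2 at 6.24 ± 2.17 and EUI1 at 5.45 ± 0.618 FPKM overlapped each other. GA3ox2 at 0.467 and GA2ox1 at 0.0877 FPKM were the lowest. In bta1-1, SLR1 was at 158 ± 33.7 FPKM, and the GID2 row at 109 ± 2.16 and GID1 at 106 ± 14.8 FPKM could not be told apart. GA20ox1, at 14.5 ± 6.85 FPKM, kept the rank of 4 but came close to KO2 at 8.26 ± 1.53 FPKM. GA2ox3 went from rank 5 in wild type to rank 8 in bta1-1, where its 3.17 and 2.90 FPKM lay below every value of KO2, GA20ox2 and EUI1. GID1 and SLR1 thus stood above each of the enzymes in FPKM in every library, and GA3ox2 and GA2ox1 were the lowest in both lines.

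**Figure D2:**
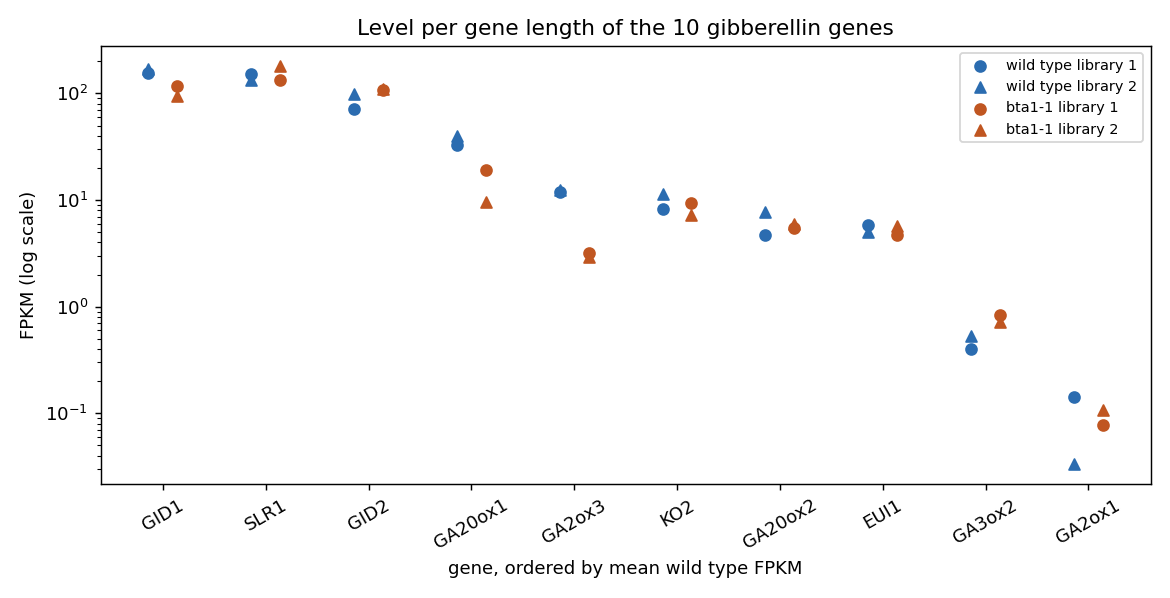
FPKM on a log scale of the 10 genes, ordered by their wild type mean, with circles for library 1 and triangles for library 2 of wild type (blue) and bta1-1 (orange). GID1, SLR1 and GID2 lie highest, GA3ox2 and GA2ox1 lowest, and GA2ox3 moves from about 12.2 FPKM in wild type to 3.03 FPKM in bta1-1.

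A further 24 genes of the pathway were examined in the same fit. Of these, 23 were in the tables and 14 had enough reads to be tested, of which 2 were higher, 1 was lower and 11 were not called, beside 2.77% higher and 2.64% lower over all genes tested. In synthesis 0 of 4 tested genes were called (0 also at an unadjusted p under 0.05 and by DESeq2 or limma), and the smallest p belonged to KS1, the ent-kaurene synthase, whose fold change on the log2 scale was -0.22 (adjusted p = 0.743). In signalling 0 of 3 were called (0 also at an unadjusted p under 0.05 and by DESeq2 or limma), led by SPY, a repressor of gibberellin signalling, at 0.18 (adjusted p = 0.809). In the inactivation list, which holds CYP714B2 beside GA 2-oxidases, 1 of 4 was lower and none higher.

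The lower one was GA2ox9 (OS02G0630300), another member of the GA 2-oxidase family. Its reads numbered 217 and 96 in the wild type pair and 30 and 50 in the bta1-1 pair, which is 10.4 and 6.70 CPM against 1.80 and 2.71 CPM. Both bta1-1 libraries lay well below both wild type libraries, a 3.80-fold difference (log2 fold change -1.92, SE 0.40, adjusted p = 0.03). The call was lost without wild type library 1 (log2 fold change -1.57) and in a fit blocked by replicate number (adjusted p = 0.0807). It was also lost with limma on log2(FPKM + 1), at adjusted p = 0.0527 with the filter on low counts and 0.245 without it. GA2ox8 had 118 and 138 reads against 110 and 25, so that bta1-1 library 2 alone was low. It was called lower without bta1-1 library 1 (adjusted p = 0.00894) and not over the 4 libraries (adjusted p = 0.532). CYP714B2, a cytochrome P450 of the EUI1 family, was placed in the same list and is not a GA 2-oxidase. CYP714B2 pointed the other way, with 11.6 and 7.68 CPM in wild type and 12.5 and 17.7 CPM in bta1-1. Its groups did not overlap, and it was not called (log2 fold change 0.64, 95% interval -0.08 to 1.36, adjusted p = 0.35). GA2ox7, also of that list, had 5.6 and 4.7 CPM in wild type and 4.3 and 2.7 CPM in bta1-1. The groups of GA2ox7 did not overlap either, and it was not called (log2 fold change -0.55, adjusted p = 0.556).

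Of 3 tested genes known to be induced by gibberellin or of that family, 2 rose in bta1-1, beside 2.77% of all genes tested, and 3 genes are too few to describe such genes in general. GASR2 (OS04G0465300), of the gibberellin-stimulated transcript family of small secreted peptides, had 16.3 and 18.3 CPM in wild type and 44.2 and 75.2 CPM in bta1-1. It rose 3.45-fold (log2 fold change 1.79, SE 0.29, adjusted p = 0.0128), and the call held without each library in turn. GSR1 (OS06G0266800), of the same family, had 60.4 and 57.6 CPM against 132 and 195 CPM. It rose 2.77-fold (log2 fold change 1.47, SE 0.28, adjusted p = 0.0206), and the call was lost without wild type library 1 or 2 (adjusted p = 0.0574 and 0.0666). GASR1 (OS03G0760800) had 25.6 and 44.6 CPM against 41.7 and 36.9 CPM, with overlapping groups (log2 fold change 0.17, adjusted p = 0.853). In both called genes bta1-1 library 2 was the highest of the 4 libraries. The same library had the highest sum of 3 germinating grain markers, 3.63 CPM against 0.959 to 1.49 CPM in the others. RAMY1A made up most of that sum, at 2.82 CPM against 0.420 to 0.628 CPM. GLUA1 was also highest in that library, at 0.650 CPM against 0.209 to 0.360 CPM. RAMY3D was lowest there, at 0.162 CPM against 0.180 to 0.673 CPM. The part of these markers in the result was not tested.

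**Figure D3:**
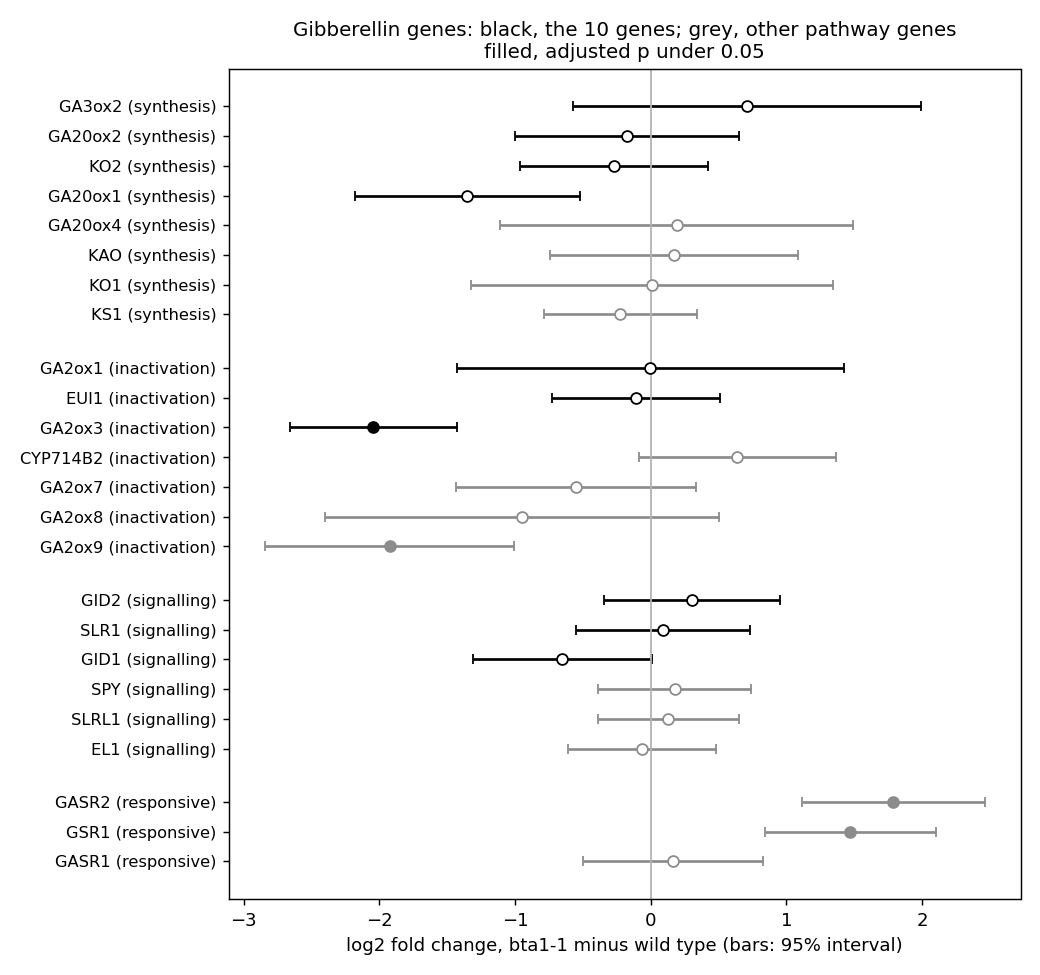
Log2 fold change of bta1-1 minus wild type with its 95% interval for the 10 genes (black) and the 14 other tested pathway genes (grey), grouped by role, with filled points at an adjusted p under 0.05. GA2ox3 at -2.05 and GA2ox9 at -1.92 are filled on the lower side and GASR2 at 1.79 and GSR1 at 1.47 on the higher side, while GA20ox1 at -1.35 is open.

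The remaining 9 pathway genes in the tables were read too rarely for a test. GA20ox3, GA3ox1, GA2ox5 and CYP714B1 had 0 reads in each library, which allows a level of up to 0.148 to 0.199 unscaled CPM, for counting error alone (3 counts per library). With GA3ox1 at 0, GA3ox2 was the GA 3-oxidase with reads in these seedlings. CPS1, which makes the precursor of ent-kaurene, was counted 2 and 1 times in the wild type libraries and 4 and 6 times in the bta1-1 libraries. GA2ox4 was counted 3 and 6 times in wild type and 3 and 16 times in bta1-1. The counts of GAMYB were 6 and 3 in wild type and 2 and 3 in bta1-1. GA2ox6 and SLRL2 had at most 1 read in any library.

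**Figure D4:**
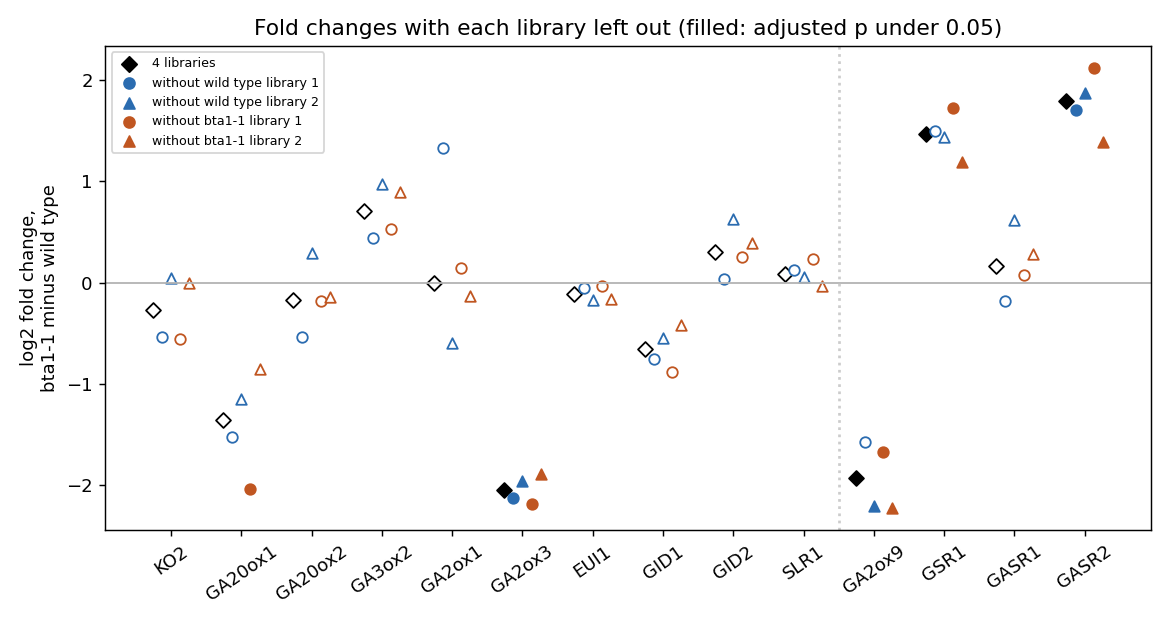
Log2 fold change of the 10 genes and of 4 other pathway genes (right of the dotted line) with 4 libraries (black diamonds) and with each library left out, filled at an adjusted p under 0.05. The points of GA2ox3 stay filled between -2.19 and -1.88, those of GA20ox1 spread from -2.04 to -0.86 with 1 filled, and those of KO2, GA20ox2, GA2ox1, SLR1 and GASR1 lie on both sides of 0.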

How the data were processed

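RNA sequencing counts of 4 libraries were used, grouped by the labels. The authors deposited a table of raw, whole-number read counts for each gene. FPKM were deposited by the authors in a second table, scaled for gene length and library size. Counts divided by FPKM gave lengths whole within 0.01 base in 100% of 123342 values. Tools named by the submitters' processing notes are TopHat2 2.0.12, Bowtie2 2.2.3 and HTSeq 0.6.1, with the build IRGSP-1.0. The sources used here do not say whether counting used strand. Reads of overlapping genes cannot be told apart for that reason.

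All genes were fitted with edgeR 4.0.16 in R 4.3.3 (TMM, filterByExpr at a count of 10 and a total of 15, quasi-likelihood with robust estimation, group as the 1 term, two-sided) and read against the 24396 genes kept. Errors are the log2 fold change over the square root of F, and 95% intervals are not adjusted. DESeq2 1.42.0 and limma 3.58.1 served as alternatives. P-values measure the spread between 2 samples a group, or, with a library left out, that of the remaining pair, moderated across genes.

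Members and lists were chosen with earlier results of these data known. Named genes are the 10 members, called pathway genes, and the smallest p per role. The 9 pathway genes in the tables that were not tested are given by their reads, outside that rule. GA2ox7, GA2ox8, CYP714B2 and GASR1 were added after their values were seen. Of the 10 names 6 matched a RefSeq table (ASM3414082v1) by name and chromosome. The other 4 (GA20ox1, GA3ox2, GA2ox1 and GA2ox3) and 13 of the 24 pathway names, GA2ox9, GSR1 and GASR2 among them, rest on the locus identifier alone.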

Additional observations from a re-analysis of the deposited data

How the results depend on the processing

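Over 15 alternatives, 1 of them a pairing chosen after seeing the data, GA2ox3 was lower in all and called in 14. GASR2 was higher in all and called in 14. Both calls were lost on log2(FPKM + 1) without a filter, at adjusted p = 0.0818 and 0.163. The number of the 10 genes called lower was 2 with DESeq2, without a filter on low counts, on log2(FPKM + 1) and on log2(FPKM + 0.1), by the addition of GA20ox1, 0 on log2(FPKM + 1) without a filter, and 1 to 2 when a library was left out. Of the 24 other pathway genes, 0 were called higher on log2(FPKM + 1) without a filter and 1 to 2 when a library was left out. Called lower were 0 on log2(FPKM + 1) with or without a filter and 0 to 2 when a library was left out. Over all genes, 675 were higher and 644 lower. With DESeq2 1027 were higher, without a filter on low counts 1582 were higher and 1322 lower, and on log2(FPKM + 1) without a filter 44 were higher and 125 lower, so that the share of calls that were higher was 26.0% in place of 51.2%. Leaving out a library gave 401 to 1202 higher and 482 to 854 lower. The causes were not tested.

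GA2ox1 changed sign to 0.0273 with upper-quartile factors, 0.0265 with DESeq2, 0.01 without a filter, 0.0084 on log2(FPKM + 1) with or without a filter and 0.10 on log2(FPKM + 0.1), with -0.59 to 1.33 when a library was left out. Leaving out a library also turned KO2 (-0.56 to 0.0447), GA20ox2 (-0.54 to 0.29), SLR1 (-0.0338 to 0.23), KS1 (-0.46 to 0.0568), SPY (-0.0276 to 0.38) and GASR1 (-0.18 to 0.62), none of them called.

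Same-numbered libraries deviated in opposite directions (Pearson's r = -0.428 across genes), and the labels do not say that the numbers mark a shared batch. With the replicate number as a block, 359 genes were higher and 415 lower, 0 of the other pathway genes were lower, and GA2ox1 had 0.19. With the numbers crossed, a pairing chosen after seeing the data, 1972 were higher and 1772 lower, 2 of the 10 genes and 2 of the other pathway genes were lower, and GA2ox1 had 0.0862. Depth limits GA3ox2 and GA2ox1, with 3 to 17 reads a library.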

Other observations

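The surroundings of the 10 genes on the chromosomes were examined with the 25 tested rice loci on either side in the order of the locus identifiers. Over the 23249 rice loci tested, 1243 were called, or 5.35%. Around GA2ox3, 5 of 50 neighbours were called, 4 higher and 1 lower, while GA2ox3 itself fell. Around GID1, 7 of 50 were called, of which 6 were lower, as the uncalled values of GID1 were. Around the other 8 genes, 0 to 6 of 50 were called (edgeR). Loci read at least 20 times in both libraries of one line and at most 3 times in both of the other numbered 141 in all, with 1 near GID1, 1 near EUI1 and none near the other 8 genes. These counts are a description of neighbouring loci, without a test.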
